A study of Mus musculus with 12 samples.

Results

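Sialic acid is the charged sugar that ends many surface glycans, and the genes that make it, pass it to the Golgi, cut it from glycans and break it down again were followed here in mouse neutrophils. The 10 genes were chosen by their known roles, but with earlier results of these data known. They were Gne, Nans and Nanp for synthesis, Cmas and Slc35a1 for activation and Golgi import, and Neu1 and Neu3 for removal from glycans. The others were Slc17a5 for export from the lysosome, and Npl and Amdhd2 for breakdown and salvage. All 10 were found among the 28987 genes in the deposited table.

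Neutrophils of FVB mice were profiled by RNA sequencing from the bone marrow (BM) and the peritoneum (PT) in 4 groups of 3 libraries, named PT WT and BM WT, PT Bcl2 and BM Bcl2. WT mice carried no transgene, and Bcl2 stands for MRP8-Bcl2 mice, in which human Bcl-2 under the regulatory regions of human MRP8, a gene of myeloid cells, makes neutrophils resistant to apoptosis. All groups, BM included, came from mice injected with 2 mL of thioglycollate to cause sterile peritonitis, and the labels place collection at 6 h, a time the methods do not give for these samples. Ages were not given, and the labels call the source cells macrophages where the design text and the methods call them neutrophils.

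Sialic acid is built in the cytosol from UDP-GlcNAc, the end product of the hexosamine pathway. GNE makes N-acetylmannosamine phosphate, NANS condenses it to a sialic acid phosphate, NANP removes the phosphate, CMAS activates the sugar in the nucleus as CMP-sialic acid, and SLC35A1 carries that into the Golgi, where sialyltransferases add it to glycans. Neuraminidases take it off again. In neutrophils, surface sialic acid is known to mask galactose-ended glycans, to engage Siglec receptors and to shape adhesion and clearance, and the study asked which changes from BM to PT mark neutrophils for removal by macrophages.

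The deposited values are log2(TPM + 1), with TPM the share of transcripts in a library, a scale already corrected for gene length, so that levels of different genes can be set side by side. Of the 28987 genes, 13456 reached at least 1 TPM in at least 3 libraries and were tested, among them 9 of the 10 sialic acid genes, Nanp being the exception. Calls needed an adjusted p under 0.05 (Benjamini-Hochberg, over all tested genes) and at least a 2-fold change on the log2(TPM + 1) scale, which understates changes of low genes. TPM holds no read totals. From the steps between low values of genes with 1 transcript, reads on those genes came to between 64515 and 311019 per library, with 72.5 to 79.0% of low values within 0.15 of a whole read where 30% would be by chance. Counts of reads given below are such estimates, made as if every read came from the longest annotated transcript, and a 0 is read as at most 3 reads. Values of single libraries follow their library numbers, which are 4, 5 and 6 for BM and 10, 11 and 12 for PT of WT mice, with 1, 2 and 3 for BM and 7, 8 and 9 for PT of MRP8-Bcl2 mice.

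Mouse Bcl2 was read as a check of the labels, although the transgene is human. Whether reads of the transgene were counted for the mouse gene was not tested. Mouse Bcl2 stood between 0.219 and 2.37 TPM in the 6 WT libraries and at 166.0, 224 and 333 TPM in BM Bcl2. In PT Bcl2 it was 82.8 TPM in library 7 and 58.6 in library 8, but 0.695 in library 9, the WT level, so the calls in PT Bcl2 are also given without the library labelled 9. Of the marker lists, S100a8 ranged from 38874 to 153516 TPM in BM and from 4495 to 27252 in PT, and the granule genes of immature neutrophils, which included Mpo and Elane, summed to between 16721 and 45175 TPM in BM and between 346 and 1171 in PT, with 8 of 8 called lower over both genotypes. Ly6g was 0 to 14.9 TPM in PT WT against 588 to 1266 in BM WT, and 58.9 to 126 TPM in PT Bcl2 against 51.5 to 1225 in BM Bcl2, where the groups overlapped. Of the 8 neutrophil markers, 3 were called lower and 1 higher over both genotypes, where 14.1% and 5.13% of all tested genes were. Log2 fold changes of 5 of them were below 0. The list summed to between 76761 and 349107 TPM in BM and between 15172 and 70100 TPM in PT. Not all neutrophil markers were lower in PT. Csf3r, the receptor of G-CSF, was called higher over both genotypes by 2.66 on the log2 scale (limma, adjusted p = 0.0030), with 1839 to 4569 TPM in PT and 132 to 1038 TPM in BM, and Cxcr2 and Itgam had log2 fold changes of 1.39 and 0.92 that did not pass the test (limma, adjusted p = 0.094 and 0.12). The macrophage markers Adgre1 and Csf1r reached at most 18.5 and 96.7 TPM in any library, and the T cell marker Cd3e at most 16.0, whereas Cd3d, another T cell marker, ranged from 5.22 to 174 TPM over the 12 libraries. Csf3r, Cxcr2, Itgam and Cd3d were named after their values were seen.

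Promoter stretches of Amdhd2, Npl and Neu1 are shown because they held 1 of the 2 short motifs that were searched. CACGTG, the core of the E-box bound by regulators of lysosomal genes, and TGANTCA, the AP-1 site, each read the same on both strands and do not overlap one another in these windows. RefSeq promoter windows of GRCm38.p6, from 250 bases before to 50 after a start site, were given for 8 of the 10 genes, in 9 windows. Amdhd2 held CACGTG 3 times, and Npl held it 1 time. Of all 32851 windows, 7.15% held at least 1 CACGTG and 0.0883% held at least 3. Neu1 held 1 TGANTCA, as did 7.81% of all windows, and the windows of Gne, Cmas, Slc35a1, Neu3 and Slc17a5 held neither. The stretches below run 5′ to 3′ with the motif in capitals: Amdhd2 at chr17:24163743-24163865 on the minus strand, between the end of the neighbouring gene and the first bases of Amdhd2; 30 bases of Npl at chr1:153549748-153549777 on the minus strand, inside an annotated first exon; and Neu1 at chr17:34931003-34931252 on the plus strand, ending just before its first exon.
Amdhd2: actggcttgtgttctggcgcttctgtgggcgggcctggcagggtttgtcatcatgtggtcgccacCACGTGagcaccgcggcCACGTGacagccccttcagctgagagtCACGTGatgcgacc
Npl: cccgcgcggcccCACGTGgtcccgcagccc
Neu1: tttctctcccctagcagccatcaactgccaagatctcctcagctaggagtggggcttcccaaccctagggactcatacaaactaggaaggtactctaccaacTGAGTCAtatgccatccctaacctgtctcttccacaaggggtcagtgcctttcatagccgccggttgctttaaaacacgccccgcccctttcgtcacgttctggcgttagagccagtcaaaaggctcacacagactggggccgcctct

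The 3 CACGTG matches of Amdhd2 begin 67, 50 and 23 bases before the RefSeq start site, and that of Npl 51 bases before its own. Amdhd2 and Npl, the 2 genes of the breakdown route, had log2 fold changes of opposite sign from BM to PT. That of Npl was called in MRP8-Bcl2 mice and over both genotypes but not in WT, and both calls were lost under some alternatives.

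Amdhd2 rose from BM to PT in both genotypes and was the sole sialic acid gene to do so. AMDHD2 is the deacetylase that turns N-acetylglucosamine 6-phosphate, a product of sialic acid and glycan breakdown, into glucosamine 6-phosphate. The gene lies on chromosome 17 from 24155833 to 24163766 (GRCm38, minus strand) and has 8 annotated transcripts of 422 to 1651 nt. In BM WT it was 41.1, 14.2 and 2.99 TPM in libraries 4, 5 and 6, and in PT WT 135, 130 and 90.4 TPM in libraries 10, 11 and 12. In BM Bcl2 it was 64.2, 30.8 and 33.0 TPM in libraries 1, 2 and 3, and in PT Bcl2 840, 347 and 303 TPM in libraries 7, 8 and 9. All 6 PT libraries therefore lay above all 6 BM libraries, a pattern that 2.58% of tested genes had in this direction. These values rest on about 12.9 to 133 reads in BM and 391 to 1460 in PT. In such sorted bulk samples a different mix of cells and a different amount of RNA per cell cannot be told apart.

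The mean level of Amdhd2 was 19.4 ± 19.6 TPM in BM and 119 ± 24.6 TPM in PT of WT mice (SD, n = 3), a log2 fold change of 3.11 ± 0.74 (SE, limma with Benjamini-Hochberg adjustment, adjusted p = 0.036). In MRP8-Bcl2 mice the means were 42.7 ± 18.7 and 497 ± 298 TPM (SD, n = 3), a log2 fold change of 3.43 ± 0.74 (SE, limma, adjusted p = 0.0067), and 3.71 with an adjusted p of 0.011 without library 9. Over both genotypes the log2 fold change was 3.27 ± 0.52 (SE, limma, adjusted p = 0.00078). The call in WT was lost without library 5, 6, 10, 11 or 12, with a log2 fold change of 2.22 (limma, adjusted p = 0.11) without library 6, the BM library with the lowest Amdhd2. The calls in MRP8-Bcl2 and over both genotypes held under every alternative run.

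The difference between the genotypes in this change was 0.33 (95% interval -1.90 to 2.55, limma, adjusted p = 0.88), and it turned to -0.49 without library 4 and -0.13 without library 7. Within PT, all 3 MRP8-Bcl2 libraries lay above all 3 WT libraries, as 0.587% of tested genes did. That difference was 1.92 ± 0.74 on the log2 scale (SE, limma, adjusted p = 0.33) and did not pass the test, nor did that in BM, 1.60 ± 0.74 (SE, limma, adjusted p = 0.67), where the groups overlapped.

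Atp6v0c, a proton pump subunit gene, ends 100 nt upstream of Amdhd2 on the same strand and shares no exonic base with it. It was listed between 0.221 and 18.0 TPM in BM and between 4.93 and 31.6 TPM in PT apart from 491 TPM in library 10, and it was not called in either genotype (limma, adjusted p = 0.35 in WT and 0.70 in MRP8-Bcl2). Library 10 was also the highest PT WT library for Amdhd2, by 135 against 130 TPM in library 11, where Atp6v0c was 4.93 TPM. Whether reads of one gene were counted for the other was not tested.

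**Figure D1:**
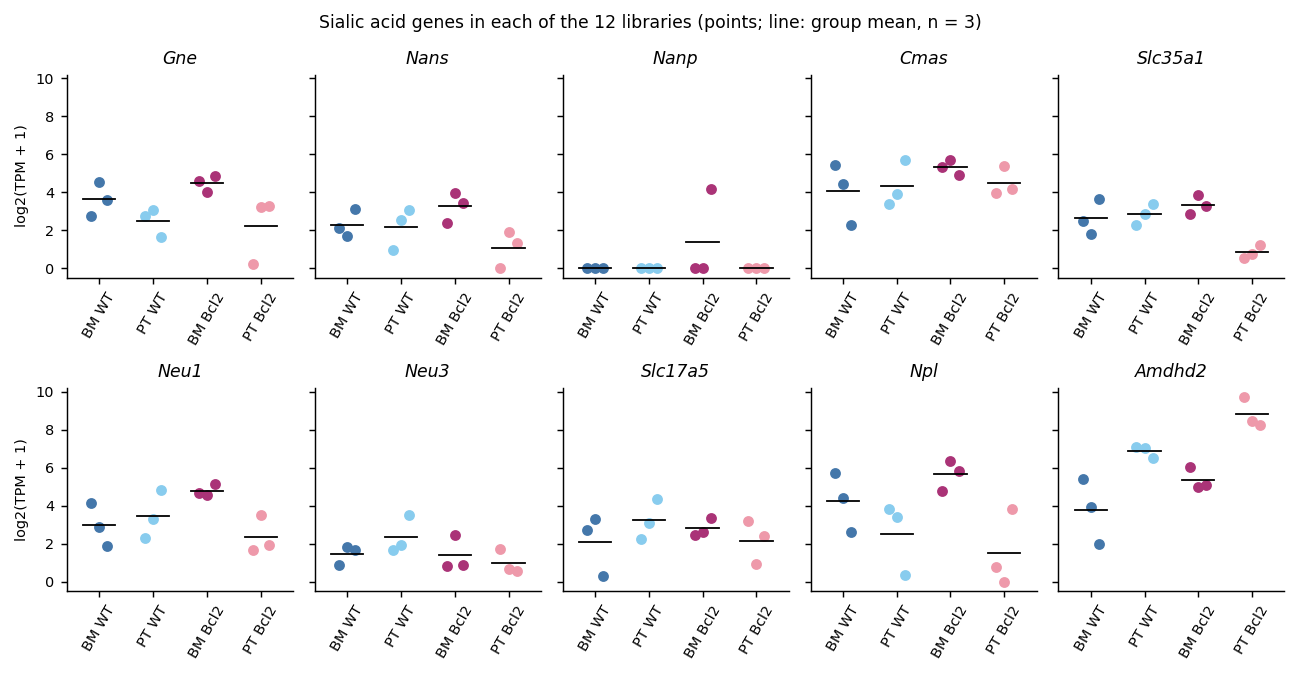
Level of each of the 10 genes as log2(TPM + 1) in the 12 libraries, by group, with points for libraries and a line for the mean of the 3 libraries. Amdhd2 sits higher in all 6 PT than in all 6 BM libraries, Npl is under 1 TPM in 3 PT libraries, and Nanp is listed at 0 in all libraries but 1.

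Npl, the other gene of breakdown, was lower in PT of MRP8-Bcl2 mice and was not called in WT. NPL is the lyase that splits free sialic acid into N-acetylmannosamine and pyruvate. In BM WT it was 50.9, 20.3 and 5.04 TPM in libraries 4, 5 and 6, and in PT WT 13.1, 9.65 and 0.280 TPM in libraries 10, 11 and 12, so that these groups overlapped. In BM Bcl2 it was 26.1, 81.1 and 56.0 TPM in libraries 1, 2 and 3, and in PT Bcl2 0.695, 0 and 12.9 TPM in libraries 7, 8 and 9. Every PT Bcl2 library was below every BM Bcl2 library, as for 32.6% of tested genes. The values under 1 TPM in libraries 7 and 12 correspond to about 1.28 reads each, and the 0 in library 8 allows up to 1.05 TPM.

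Npl was lower in PT of MRP8-Bcl2 mice by a log2 fold change of -4.13 ± 1.13 (SE, limma, adjusted p = 0.020) and over both genotypes by -2.92 ± 0.80 (SE, limma, adjusted p = 0.020). In WT the value was -1.71 ± 1.13 (SE, limma, adjusted p = 0.48). The highest PT Bcl2 value was that of library 9, and without it the log2 fold change was -5.27 (limma, adjusted p = 0.0087). The call in MRP8-Bcl2 was lost when each library was centred on its median (-2.54, adjusted p = 0.12), under quantile normalization (-3.09, adjusted p = 0.091) and without library 2, 3, 7 or 8, and the call over both genotypes was lost without library 4 (limma, adjusted p = 0.058).

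The scale between libraries bears on all genes that were lower in PT Bcl2. The median log2 fold change of all tested genes was -1.02 in MRP8-Bcl2 and 0.22 in WT, and 19.1% of tested genes were called lower in PT Bcl2 against 2.31% called higher. Centring each library on its median turned the split of 311 higher and 2567 lower genes into 1636 and 467. Relative to the median of all tested genes, Amdhd2 was higher by 4.45 and Npl lower by 3.11 on the log2 scale in MRP8-Bcl2. Genes with long runs of A or T took between 8.9 and 65.6% of all TPM in a library, with 15.5 to 65.6% in PT Bcl2 and 13.8 to 18.8% in BM Bcl2. In WT mice they took 20.0 to 54.2% in PT and 8.9 to 24.1% in BM. The part of these genes in the results was not tested beyond leaving them out, which gave a log2 fold change of -3.94 for Npl in MRP8-Bcl2 (limma, adjusted p = 0.085).

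**Figure D2:**
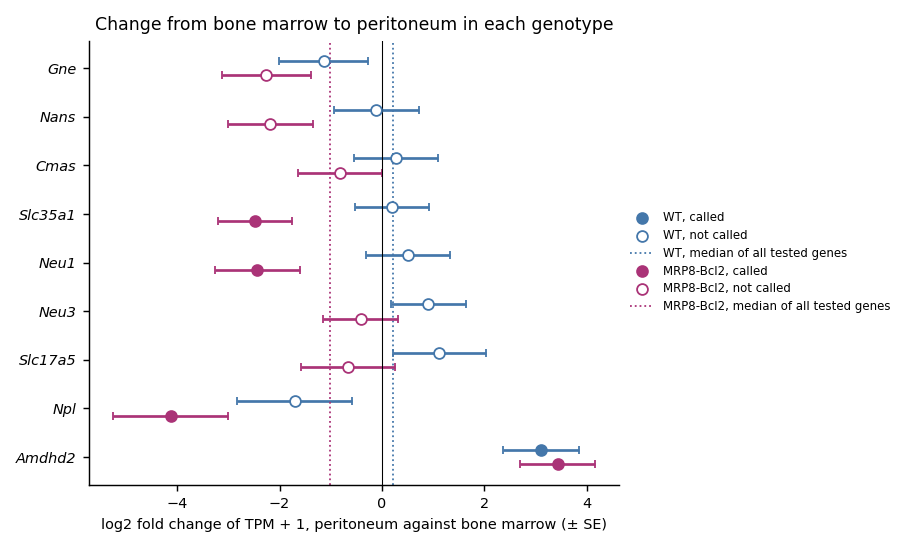
Log2 fold change of TPM + 1 from BM to PT with its standard error for the 9 tested genes, in WT and in MRP8-Bcl2 mice, with filled points for called genes and dotted lines for the median of all tested genes. Amdhd2 lies at 3.11 and 3.43, whereas Npl, Slc35a1, Neu1, Gne and Nans lie left of the MRP8-Bcl2 median of -1.02 in that genotype.

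Among the genes of synthesis, none passed the test in any comparison. Gne encodes the bifunctional enzyme that begins sialic acid synthesis and sets its rate. It was 5.85, 22.1 and 10.97 TPM in BM WT and 5.73, 7.48 and 2.08 TPM in PT WT, with overlapping groups. In BM Bcl2 it was 23.2, 15.1 and 28.3 TPM, and in PT Bcl2 0.154, 8.36 and 8.59 TPM, all lower than in BM Bcl2, as for 32.6% of tested genes. The lowest value, in library 7, corresponds to about 0.991 read.

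The log2 fold change of Gne was -2.26 ± 0.87 in MRP8-Bcl2 (SE, limma, adjusted p = 0.075), -1.14 ± 0.87 in WT (SE, limma, adjusted p = 0.55) and -1.70 ± 0.61 over both genotypes (SE, limma, adjusted p = 0.065). Without library 9 the last of these was called, at -1.96 (limma, adjusted p = 0.047), and the value in MRP8-Bcl2 was -2.77 (limma, adjusted p = 0.057). Of the 4 group means, that of BM Bcl2 was the highest, at 22.2 ± 6.67 TPM (SD, n = 3), and those of PT WT and PT Bcl2 were 5.10 ± 2.75 and 5.70 ± 4.80 TPM (SD, n = 3).

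Nans, the sialic acid phosphate synthase, was 3.28, 2.29 and 7.60 TPM in BM WT and 0.956, 4.85 and 7.43 TPM in PT WT. It was 4.15, 14.8 and 9.84 TPM in BM Bcl2 and 0, 2.74 and 1.52 TPM in PT Bcl2, again with no overlap in MRP8-Bcl2 (as for 32.6% of tested genes) and overlap in WT. The 0 in library 7 allows up to 1.02 TPM. Its log2 fold change was -2.18 ± 0.83 in MRP8-Bcl2 (SE, limma, adjusted p = 0.071), or -2.31 without library 9 (limma, adjusted p = 0.0999), and -0.11 ± 0.83 in WT (SE, limma, adjusted p = 0.97). Nans shares 1356 exonic bases with Trim14 on the opposite strand, and since no source states that strand was used in counting, reads of the 2 genes cannot be told apart there.

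Nanp, the phosphatase, was listed at 0 in 11 of the 12 libraries and at 16.8 TPM in library 3 (BM Bcl2), about 15.9 reads. The zeros allow up to between 0.675 and 2.93 TPM. It did not reach the level for testing. No fold is given, because neither organ had a level above 0 in more than 1 library, and Nanp shares 146 exonic bases with Ninl on the same strand.

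Cmas, which encodes the activating enzyme, was the sialic acid gene with the highest mean over the 12 libraries after Amdhd2, at 27.7 TPM against 169 TPM. In WT mice it was 42.2, 20.6 and 3.91 TPM in BM and 9.29, 14.1 and 50.8 TPM in PT. In MRP8-Bcl2 mice it was 38.9, 51.3 and 29.3 TPM in BM and 14.8, 40.2 and 16.8 TPM in PT. The groups overlapped in both genotypes. The log2 fold change was 0.27 ± 0.82 in WT and -0.82 ± 0.82 in MRP8-Bcl2 (SE, limma, adjusted p = 0.91 and 0.49), with a 95% interval over both genotypes of -1.51 to 0.97.

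Slc35a1, the CMP-sialic acid carrier of the Golgi, was lower in PT of MRP8-Bcl2 mice. It was 4.62, 2.53 and 11.6 TPM in BM WT and 3.86, 6.29 and 9.57 TPM in PT WT. In BM Bcl2 it was 6.22, 13.5 and 8.74 TPM, and in PT Bcl2 0.447, 0.717 and 1.33 TPM, the lowest 3 of all 12 libraries. The values in PT Bcl2 correspond to about 0.997, 2.48 and 4.76 reads, so that they are known only to a few reads. Of all tested genes, 32.6% had every PT Bcl2 library below every BM Bcl2 library, and the share lowest over all 12 libraries was not counted.

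The log2 fold change of Slc35a1 was -2.49 ± 0.72 in MRP8-Bcl2 (SE, limma, adjusted p = 0.026) and 0.19 ± 0.72 in WT (SE, limma, adjusted p = 0.93). The difference between the 2 changes was -2.68 with a 95% interval of -4.86 to -0.50 and did not pass the test (limma, adjusted p = 0.25). Within PT every MRP8-Bcl2 library lay below every WT library, as for 18.8% of tested genes, and the difference of MRP8-Bcl2 from WT was -2.005 ± 0.72 (SE, limma, adjusted p = 0.31). Without library 9 the MRP8-Bcl2 call held, at -2.68 (limma, adjusted p = 0.039). It was lost without library 2, 3, 7 or 8, where the log2 fold change was -2.22 to -2.51 (limma, adjusted p = 0.058 to 0.097), and with the genes of long A or T runs left out, where it was -2.16 (limma, adjusted p = 0.090). On rescaling without the 100 highest genes it was lost at -2.11 (limma, adjusted p = 0.059), on centring on the median at -0.90 (limma, adjusted p = 0.41) and under quantile normalization at -0.81 (limma, adjusted p = 0.46).

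Of the neuraminidases, Neu1 encodes the lysosomal enzyme, which can also reach the cell surface, and Neu3 the plasma membrane enzyme that acts mainly on gangliosides. Neu1 was 16.3, 6.45 and 2.63 TPM in BM WT and 3.91, 8.74 and 27.1 TPM in PT WT. It was 24.6, 22.7 and 34.5 TPM in BM Bcl2 and 2.15, 10.3 and 2.85 TPM in PT Bcl2. The 3 BM Bcl2 values were thus above those of every BM WT library, as for 10% of tested genes, and above those of every PT Bcl2 library, as for 32.6%.

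The log2 fold change of Neu1 from BM to PT was -2.43 ± 0.82 in MRP8-Bcl2 (SE, limma, adjusted p = 0.047) and 0.51 ± 0.82 in WT (SE, limma, adjusted p = 0.81), with a difference between them of -2.94 and a 95% interval of -5.42 to -0.46 that did not pass the test (limma, adjusted p = 0.26). The MRP8-Bcl2 call was close to the threshold and was lost without library 9 (-2.22, limma, adjusted p = 0.11), without any one of 6 other libraries (1, 2, 3, 5, 7 or 11), and on centring on the median (-0.84, limma, adjusted p = 0.44). The WT value turned to -0.17 without library 12 and to -0.04 without library 6. Bcl2 against WT in BM gave 1.84 ± 0.82 for Neu1 (SE, limma, adjusted p = 0.67).

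Neu3 was low throughout. In WT mice it stood at 0.853, 2.52 and 2.15 TPM in BM and 2.23, 2.74 and 10.2 TPM in PT, the last in library 12. In MRP8-Bcl2 mice it stood at 0.773, 4.53 and 0.831 TPM in BM and 2.26, 0.574 and 0.467 TPM in PT. It has 1 annotated transcript of 3341 nt, and its values rest on about 2.13 to 98.0 reads. The log2 fold change was 0.91 ± 0.74 in WT and -0.42 ± 0.74 in MRP8-Bcl2 (SE, limma, adjusted p = 0.59 and 0.71). Of the other 2 neuraminidases, Neu2 and Neu4, neither reached the level for testing.

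Slc17a5 encodes sialin, which lets free sialic acid out of the lysosome. In WT mice it was 5.60, 8.71 and 0.233 TPM in BM and 3.77, 7.45 and 19.3 TPM in PT. In MRP8-Bcl2 mice it was 4.58, 5.18 and 9.27 TPM in BM and 8.05, 0.892 and 4.23 TPM in PT. The groups overlapped in both genotypes, with a log2 fold change of 1.12 ± 0.91 in WT and -0.66 ± 0.91 in MRP8-Bcl2 (SE, limma, adjusted p = 0.59 and 0.63).

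Counted together, 1 of the 9 tested genes was called higher and 0 lower in PT WT, where 1.59% and 1.22% of all tested genes were. At an unadjusted p under 0.05 the counts in WT were likewise 1 and 0, beside 10.2% and 6.32% of all tested genes. In MRP8-Bcl2, 1 was called higher and 3 lower, where 2.31% and 19.1% of all tested genes were, and over both genotypes 1 higher and 1 lower, where 5.13% and 14.1% were. The median log2 fold change of the 9 genes was 0.27 in WT, beside 0.22 for all tested genes, and -2.18 in MRP8-Bcl2, beside -1.02. The groups did not overlap for 5 genes lower in PT Bcl2, Gne, Nans, Slc35a1, Neu1 and Npl, beside 32.6% of all tested genes, and for 0 genes lower in PT WT, beside 7.97%. Amdhd2 alone was higher in every PT library, beside 14.9% of tested genes in WT and 5.18% in MRP8-Bcl2. PT against BM in the 2 genotypes was estimated in separate libraries. By limma none of the 9 was called in the difference between genotypes, where 0.0149% of tested genes were, or in Bcl2 against WT, where 0.0223% were in BM and 0.0297% in PT. At an unadjusted p under 0.05, Slc35a1 and Neu1 were lower in that difference (16.6% of tested genes), Amdhd2 and Neu1 higher in BM Bcl2 (6.61%), Amdhd2 higher in PT Bcl2 (0.446%) and Slc35a1 lower there (12.3%). Without library 9 the differences of MRP8-Bcl2 from WT within PT were 2.20 for Amdhd2 and -2.19 for Slc35a1 (limma, adjusted p = 0.26 and 0.25).

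Ratios within a library do not depend on the scale between libraries. The summed TPM of Neu1 and Neu3 over that of the 5 supply genes Gne, Nans, Nanp, Cmas and Slc35a1 was below 1 in every library. As a log2 ratio it was -1.70, -2.40 and -2.83 in BM WT and -1.69, -1.51 and -0.90 in PT WT, which placed all 3 PT WT values above the highest of BM WT. In MRP8-Bcl2 the order was the reverse, with -1.52, -1.80 and -1.40 in BM and -1.81, -2.26 and -3.09 in PT, the last in library 9. The nearest values of the 2 organs lay close together, at -1.70 and -1.69 for WT mice, with -1.80 and -1.81 for MRP8-Bcl2 mice. These ratios are a description with no test.

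Amdhd2 took a growing share of the summed TPM of the 10 genes. In WT mice the share was between 6.35 and 24.0% in BM and between 41.6 and 76.0% in PT. In MRP8-Bcl2 mice it was between 12.9 and 33.3% in BM and between 84.5 and 96.7% in PT. In WT mice the other 9 genes together came to 44.1 to 130 TPM in BM and 42.8 to 127 TPM in PT. In MRP8-Bcl2 mice they came to 128 to 208 TPM in BM and 28.6 to 63.8 TPM in PT. The 3 PT Bcl2 sums were thus below all BM Bcl2 sums, whereas the WT ranges of the 2 organs nearly coincided.

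**Figure D3:**
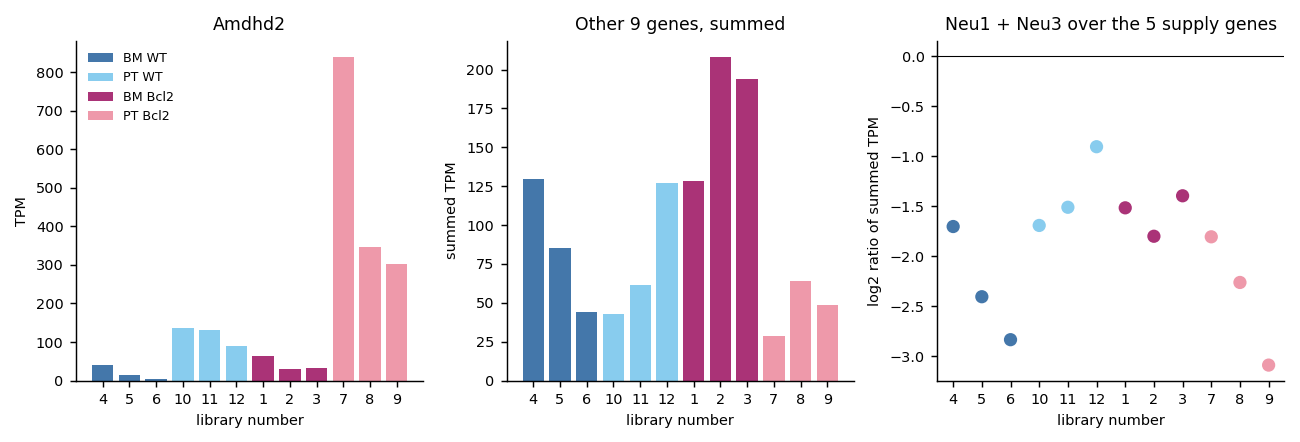
Amdhd2 in TPM (left), the summed TPM of the other 9 genes (middle) and the log2 ratio of neuraminidase to supply TPM (right) in each of the 12 libraries, coloured by group. Amdhd2 reaches 840 TPM in library 7, where the other 9 genes come to 28.6 TPM, and the ratio stays below 0 throughout.

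Other cells and maturity were read from marker lists. The granule genes of immature neutrophils moved with the organ, as given above, and the erythroid list fell from a summed 33.3 to 691 TPM in BM to 0 to 8.18 TPM in PT. B cell markers summed to 32.9 to 268 TPM in BM and 239 to 1433 TPM in PT, with 3 of 6 called higher over both genotypes. Of all tested genes, 5.13% were called higher over both genotypes, the share to set beside this count and those that follow. Macrophage markers summed to 15.1 to 120 TPM in BM and 19.6 to 142 TPM in PT, with 1 of 9 tested called higher over both genotypes. T cell markers summed to 7.27 to 177 TPM in PT and 39.3 to 71.2 in BM, with none of 4 tested called, mast cell markers to 4.30 to 645 and 9.37 to 90.1 TPM, with 2 of 5 called higher over both genotypes, and eosinophil markers to 5.84 to 23.2 and 1.63 to 9.63 TPM, with 1 of 2 tested called higher over both genotypes and Epx at 0 in every library. Their part in the changes of the sialic acid genes was not tested.

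By the pattern over the 12 libraries, the genes most like Amdhd2 were Acot2, Wsb2 and Parp14, with Pearson's r of log2(TPM + 1) of 0.920, 0.919 and 0.916. Those most like Npl were Gstm1 (r = 0.946), Rnf220 (0.943) and Fam105a (0.942), those most like Gne were Sirt7 (0.944), 2310047M10Rik (0.937) and Tmem167b (0.921), and those most like Slc35a1 were Ogfod1 (0.939), Eef1e1 (0.931) and Far2 (0.925). These are the highest of 13456 genes over 12 libraries that share organ and genotype differences, and they are given as a description.

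The steps on either side of these genes showed few called changes. Of the lysosomal neuraminidase complex, Glb1, which encodes beta-galactosidase, was called lower in PT Bcl2 (limma, adjusted p = 0.026). In MRP8-Bcl2 mice it was 2.24 to 3.73 TPM in BM, whereas every one of the 3 PT libraries listed it at 0, so no fold is given, and the call was lost without library 9 (limma, adjusted p = 0.057). WT libraries had 1.54 to 5.60 TPM in BM and 0.156 to 1.30 TPM in PT (limma, adjusted p = 0.28). Ctsa, which encodes the protective protein cathepsin A, was 5.48 to 36.5 TPM in BM WT and 51.5 to 96.8 TPM in PT WT, a log2 fold change of 1.78 that did not pass the test (limma, adjusted p = 0.34). In MRP8-Bcl2 mice it was 34.2 to 80.4 TPM in BM and 27.0 to 414 TPM in PT, which overlapped, with a log2 fold change of 0.77 (limma, adjusted p = 0.56). Ctsa was singled out after its values were seen.

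The hexosamine pathway supplies UDP-GlcNAc for sialic acid synthesis and takes up the product of AMDHD2. The list read for it held 12 genes and went beyond the steps that build UDP-GlcNAc, with Ogt, Oga, Renbp, Gnpda1 and Gnpda2 included. Of the 12 genes, all tested, 0 were called in WT and 1 was called lower in MRP8-Bcl2, where 19.1% of all tested genes were. That gene was Pgm3, the phosphoacetylglucosamine mutase, which in MRP8-Bcl2 mice ranged from 2.26 to 10.6 TPM in BM and from 0 to 0.897 TPM in PT, a log2 fold change of -2.03 (limma, adjusted p = 0.048) that was -1.84 and lost its call without library 9 (limma, adjusted p = 0.12). Nagk, the kinase one step before Amdhd2, and Gnpda1, a deaminase one step after it, were named after their values were seen. Nagk had log2 fold changes of -0.41 in WT and -0.11 in MRP8-Bcl2 (limma, adjusted p = 0.80 and 0.92), and Gnpda1 of 3.24 and 0.92 (limma, adjusted p = 0.15 and 0.58). The median log2 fold change of the 12 genes was 0.90 in WT, beside 0.22 for all tested genes, and -0.50 in MRP8-Bcl2, beside -1.02.

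Of the 14 tested sialyltransferases, which spend the CMP-sialic acid, St3gal6 was higher in PT of both genotypes, by 4.02 in WT and 4.31 in MRP8-Bcl2 on the log2 scale (limma, adjusted p = 0.041 and 0.0085). St3gal2 was lower in MRP8-Bcl2 by -2.98 (limma, adjusted p = 0.012), and no other was called in either genotype. Its level in those mice was 4.35 to 12.5 TPM in BM and only 0 to 0.467 TPM in PT. Of all tested genes, 1.59% were called higher in WT, and 2.31% higher and 19.1% lower in MRP8-Bcl2. Both MRP8-Bcl2 calls held without library 9, at 4.35 for St3gal6 and -3.12 for St3gal2 (limma, adjusted p = 0.020 and 0.023). How these calls and the WT call of St3gal6 fared under the other alternatives is not given here. The scale between libraries bears on the St3gal2 call, as on other genes lower in PT Bcl2. Of the 3 genes that modify sialic acid, all tested, 0 were called, and Cmah, the hydroxylase with the highest level of them, ranged from 27.0 to 94.2 TPM in BM and 51.2 to 77.4 TPM in PT of WT mice, and from 41.1 to 151 TPM in BM and 28.0 to 67.4 TPM in PT of MRP8-Bcl2 mice.

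**Figure D4:**
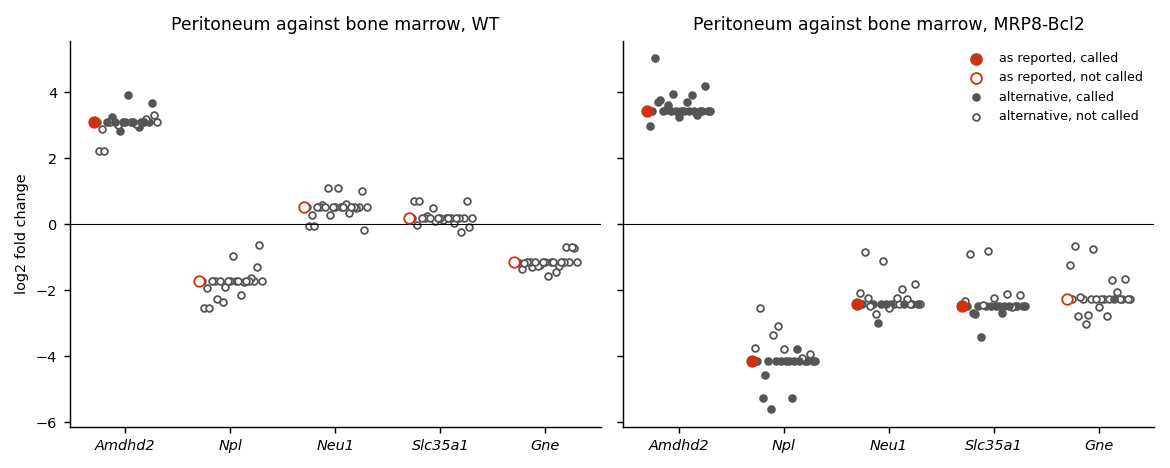
Log2 fold change from BM to PT of 5 genes in WT (left) and MRP8-Bcl2 (right) as reported (large points) and under the alternative filters, scalings, tests and left-out libraries (small points), filled where the gene was called. Amdhd2 stays above 2 in all and is called throughout in MRP8-Bcl2, whereas the calls of Npl, Neu1 and Slc35a1 are lost under several.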

How the data were processed

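The authors sorted the cells, sequenced the libraries, analysed the reads with AltAnalyze and deposited a table of log2(TPM + 1) per gene for 12 libraries. The genome build, the strand setting and the read totals are not given in the sources used here. Columns of the authors' own group means, fold changes and p-values were not used, and 2 columns of per-sample values that nothing ties to a sample were left out. Library columns name a group but no mouse, so p-values measure the spread between these libraries, which may be technical. Pairs of libraries of a group correlated at r = 0.708 to 0.847, and none held identical values.

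The filter kept genes that reached 1 TPM in 3 or more libraries. Tests used limma 3.58.1 in R 4.3.3, with a mean trend and 8 residual degrees of freedom, in 1 fit of the 4 groups, with Benjamini-Hochberg adjustment over 13456 genes, after a test on simulated data. The difference between genotypes was called at the adjusted p alone. For the estimate of depth, TPM of 5021 genes with 1 transcript in GENCODE M21 was multiplied by the length less 260 nt. Coordinates are GRCm38, matched by Ensembl gene ID, and promoters are those of RefSeq. Values use a pseudocount of 1 TPM. Depth limits precision: intervals of reads were not computed, and the estimates cover genes with 1 transcript.

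All 10 members were named. From each wider list at most 4 genes called in either organ comparison were named, or, with none called, the gene of highest mean TPM, together with the 3 genes most like each of 4 members and the label and cell markers, of which 1 is not reported here. The members and lists were chosen with earlier results of these data known. Alternatives were a pseudocount of 0.1, 2 other filters, centring on the median, quantile normalization, rescaling without the 100 highest genes, fits of only the groups compared, no trend, no fold limit, an adjusted p under 0.1 and each library left out. Omitting genes that hold 31 or more A or T in a row, and omitting libraries 6 and 9 together, were added after seeing the data.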

Additional observations from a re-analysis of the deposited data

How the results depend on the processing

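Amdhd2 was called higher in MRP8-Bcl2 and over both genotypes under every alternative run, with log2 fold changes of 2.98 to 5.02 and 2.83 to 3.96. The count of sialic acid genes called higher in WT went from 1 to 0 with no filter, on centring on the median, in the fit of only the groups compared, without the trend and without libraries 6 and 9, and was 0 to 1 without 1 library. The count called lower in MRP8-Bcl2 went from 3 to 0 on centring on the median, under quantile normalization and with the genes of long A or T runs left out, to 1 on rescaling without the 100 highest genes, and to 5 at an adjusted p under 0.1, and was 0 to 3 without 1 library. The count called lower over both genotypes went from 1 to 0 with no filter, on centring on the median and with the genes of long A or T runs left out, to 2 at an adjusted p under 0.1, and was 0 to 2 without 1 library. It reached 2 without library 9, when Gne was added. In WT, Neu1 turned to -0.043 without libraries 6 and 9 and ranged from -0.17 to 1.09 without 1 library, and Slc35a1 turned to -0.022 on centring on the median and ranged from -0.22 to 0.69 without 1 library. The genotype difference of Amdhd2 ranged from -0.49 to 1.21 without 1 library. The cause of these changes was not tested. Over all tested genes in MRP8-Bcl2, 311 were called higher and 2567 lower, against 1636 and 467 on centring on the median and 678 and 779 under quantile normalization. In WT, 214 and 164 became 112 and 197, and 233 and 264, and over both genotypes 690 and 1891 became 1752 and 862, and 1233 and 1249. No paired analysis was possible because the library columns carry no replicate number. By the methods both organs of a mouse were sampled, so BM and PT libraries may share mice, which the tests of PT against BM treat as independent. Values under about 3 reads, as for Slc35a1 and Npl in PT Bcl2, limit what a fold change of these genes can show.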

Other observations

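Receptors of sialic acid and the enzymes that build the glycans under it were also read. Of 12 receptor genes 10 were tested, and 0 were called in WT, where 1.59% of all tested genes were called higher and 1.22% lower. In MRP8-Bcl2 1 was called higher and over both genotypes 4, where 2.31% and 5.13% of all tested genes were. Siglecf, a receptor gene here, is also in the eosinophil marker list. The one called in MRP8-Bcl2 was Cd33, a Siglec gene of myeloid cells, at 66.8 to 395 TPM in BM Bcl2 and 504 to 1138 TPM in PT Bcl2. Its log2 fold change there was 2.07 ± 0.66 (SE, limma, adjusted p = 0.039), or 2.28 without library 9, where the call was lost (limma, adjusted p = 0.051). In WT its log2 fold change was 0.98 ± 0.66 (SE, limma, adjusted p = 0.49). The median log2 fold change of the 10 genes was 1.30 in MRP8-Bcl2, beside -1.02 for all tested genes, and 0.92 in WT, beside 0.22. The list was not limited to receptors of neutrophils, and the part of other cells in these medians was not tested. Siglece, another Siglec gene, was named after its values were seen. It was 83.2 to 161 TPM in BM Bcl2 and 167 to 511 TPM in PT Bcl2, a log2 fold change of 1.21 that did not pass the test (limma, adjusted p = 0.12). In WT mice it was 94.3 to 228 TPM in BM and 167 to 287 TPM in PT, which overlapped, with a log2 fold change of 0.29 (limma, adjusted p = 0.84).

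Of 15 genes of N-glycan branching and galactose capping 13 were tested, of which 0 were called in WT and 1 was called lower in MRP8-Bcl2, where 19.1% of all tested genes were. That gene was Mgat5, whose enzyme adds the branch that the lectin PHA-L binds. The study found that PHA-L binding to peritoneal neutrophils of MRP8-Bcl2 mice rose with time, a measure of surface glycans and not of RNA. Mgat5 was 6.22, 10.3 and 10.5 TPM in order of level in BM Bcl2 and 0, 0.178 and 0.655 TPM in PT Bcl2. Its log2 fold change in those mice was -2.97 ± 0.71 (SE, limma, adjusted p = 0.011), and -3.17 without library 9 (limma, adjusted p = 0.019). Those PT Bcl2 values lay under 1 TPM, and the reads behind them were not estimated. How the call fared under the other alternatives is not given here, and the scale between libraries bears on it. In WT Mgat5 was 2.30 to 7.44 TPM in BM and 0.800 to 4.98 TPM in PT, with overlapping groups and a log2 fold change of -0.67 ± 0.71 (SE, limma, adjusted p = 0.70).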
